A study of Mus musculus with 24 samples.

Results

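The 10 genes described here mark macrophages or carry the signal that sustains them. They were taken by name from the deposited count table, which holds 55401 genes, and all 10 had reads in each of the 24 libraries. *Csf1* encodes a ligand and *Csf1r* its receptor, *Spi1* encodes a transcription factor, and *Adgre1* and *Cd68* are general macrophage markers. *Mrc1*, *Lyve1*, *Cd163* and *Folr2* are used as markers of the resident type, and *Cd14* stands for the monocyte type. The libraries are bulk mRNA-seq of the maternal-fetal interface (MFI), the tissue where the maternal decidua meets the fetal placenta. Wild-type (WT) mice and C1qtnf6-KO (KO) mice, both of C57BL/6 background, were sampled at 4 gestation days (gd), named gd10.5, gd14.5, gd16.5 and, shortly before birth, gd19.5, with 3 libraries for each of the 8 groups. The KO animals carried a homozygous CRISPR/Cas9 deletion that removed exons of *C1qtnf6*, which encodes the secreted protein CTRP6. The deletion is constitutive, so mother and fetus both lack the gene and their parts cannot be told apart. The labels name no dam, litter, fetal sex or maternal age, so the p-values measure the spread between these libraries, whatever its source.

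Macrophages depend on the receptor Csf1r, which is bound by Csf1 and by a second ligand, Il34. The transcription factor PU.1, encoded by *Spi1*, is needed for the macrophage fate and for transcription of *Csf1r*. Tissue-resident macrophages often carry the mannose receptor Mrc1, the hyaluronan receptor Lyve1, the haemoglobin scavenger Cd163 and the folate receptor Folr2, whereas Cd14, a co-receptor for bacterial lipopolysaccharide, is prominent on monocytes. In the pregnant mouse, uterine epithelium makes Csf1, and trophoblast transcribes *Csf1r* besides macrophages. Lyve1 is also found on lymphatic endothelium and on some other endothelial cells, so none of these genes belongs to macrophages alone in such tissue.

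Library totals lay between 20975717 and 37383108 counts, and levels are given as CPM, the counts of a gene scaled to 1e+06 counts of normalized library size. *C1qtnf6* averaged between 67.1 and 158 CPM in the 4 WT groups and between 0.416 and 1.05 CPM in the KO groups. KO gd10.5 replicate 2 stood apart from the other gd10.5 libraries. Its 10 NK cell genes summed to 535 CPM against 929 to 1347 CPM in the other 5, and its 11 trophoblast genes were the highest of the KO gd10.5 group at 20283 CPM, where the WT gd10.5 libraries reached 9234 CPM. Its 4 Y-linked genes summed to 71.1 CPM, against at most 0.311 CPM in the other 5. For the 10 genes, the counts of calls were also made without KO gd10.5 replicate 2 and are among the ranges over left-out libraries. The values of other genes and lists and the correlations include it. At gd16.5 the Y-linked sums were 194 and 188 CPM in KO replicates 1 and 2 and 89.2 CPM in WT replicate 1, and at most 1.14 CPM in the rest. The part of fetal sex in the genotype differences was not tested. In bulk RNA, fewer cells of a type and less RNA per cell cannot be told apart.

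Compared per length of exon, *Cd68* and *Csf1r* were far more abundant than the other markers. Over the 24 libraries, *Cd68* averaged 134 and *Csf1r* 110 CPM per kilobase, above 98.4% and 98.1% of the 19299 genes tested across stages. *Lyve1* (10.1), *Csf1* (8.71) and *Cd14* (4.66 CPM per kilobase) followed. *Mrc1* (2.02), *Adgre1* (1.47) and *Spi1* (1.03) lay near or under the middle of the tested genes, and *Folr2* (0.479) and *Cd163* (0.152 CPM per kilobase) near the bottom. The ranges of *Cd68* and *Csf1r* overlapped each other, with 81.5 to 190.1 and 56.9 to 173 CPM per kilobase, and neither overlapped that of any other of the 10 genes. Within a library the ratio of *Csf1r* to *Adgre1*, which encodes the antigen F4/80, ran from 34.5 in a WT gd10.5 library to 198 in a WT gd16.5 library. The methods name default settings for the counting, which leave out reads that cover 2 genes and do not use strand, and whether strand was used was not tested. *Csf1r* shares 873 exon bases with *Hmgxb3* and *Folr2* shares 975 of its 1546 exon bases with the antisense gene *Gm10602*, so both levels may be too low.

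**Figure D1:**
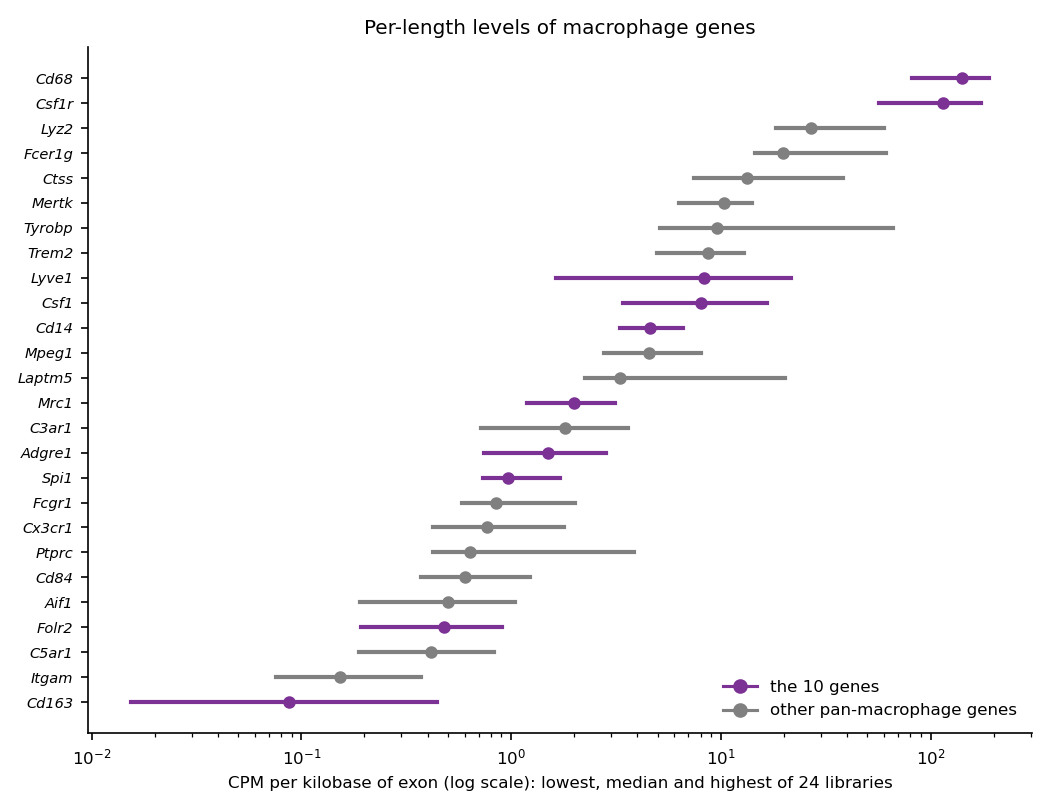
Lowest, median and highest level of each gene over the 24 libraries, in CPM per kilobase of exon on a log axis, for the 10 genes (purple) and the other genes of a general macrophage list (grey). *Cd68* and *Csf1r* have the highest medians of the genes shown, though the lower end of *Csf1r* overlaps *Lyz2*, *Fcer1g* and *Tyrobp*, and *Cd163* has the lowest median.

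Promoters were read from a RefSeq table on GRCm38.p6 for 5 of the 10 members (*Csf1*, *Cd68*, *Mrc1*, *Cd163* and *Folr2*). The table had no entry for *Adgre1*, *Lyve1* and *Spi1*. *Csf1r* and *Cd14* were left out by choice, so whether their promoters hold the letters below was not tested. The 4 below are shown because *Csf1* and *Cd163* rose together between gd14.5 and gd16.5 while *Cd68* did not, and *Mrc1* is the resident marker with the smallest changes. Each runs 5′ to 3′ from 250 bases before the start of transcription to 50 bases from it. Capitals mark GAGGAA on either strand (TTCCTC when read on the other), the core that PU.1 binds. The windows are chr3:107760420-107760719 (minus strand) for *Csf1*, chr6:124304401-124304700 (plus) for *Cd163*, chr11:69666121-69666420 (minus) for *Cd68* and chr2:14229164-14229463 (plus) for *Mrc1*.
Csf1: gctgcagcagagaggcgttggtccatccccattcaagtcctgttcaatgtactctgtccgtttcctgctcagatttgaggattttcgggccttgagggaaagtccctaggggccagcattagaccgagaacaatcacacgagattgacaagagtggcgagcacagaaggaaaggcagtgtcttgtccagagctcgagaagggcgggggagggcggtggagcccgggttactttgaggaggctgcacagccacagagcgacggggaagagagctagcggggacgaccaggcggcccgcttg
Cd163: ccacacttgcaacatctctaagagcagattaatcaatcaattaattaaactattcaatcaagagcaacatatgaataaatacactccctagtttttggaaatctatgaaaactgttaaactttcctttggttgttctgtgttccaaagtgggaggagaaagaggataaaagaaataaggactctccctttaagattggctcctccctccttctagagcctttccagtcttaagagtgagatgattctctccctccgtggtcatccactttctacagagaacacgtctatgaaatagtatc
Cd68: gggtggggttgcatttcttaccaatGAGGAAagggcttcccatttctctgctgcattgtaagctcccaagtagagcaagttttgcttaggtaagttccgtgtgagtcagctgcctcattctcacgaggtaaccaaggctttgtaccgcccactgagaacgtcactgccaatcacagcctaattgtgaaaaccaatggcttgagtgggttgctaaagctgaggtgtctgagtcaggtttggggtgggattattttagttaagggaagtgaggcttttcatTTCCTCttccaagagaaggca
Mrc1: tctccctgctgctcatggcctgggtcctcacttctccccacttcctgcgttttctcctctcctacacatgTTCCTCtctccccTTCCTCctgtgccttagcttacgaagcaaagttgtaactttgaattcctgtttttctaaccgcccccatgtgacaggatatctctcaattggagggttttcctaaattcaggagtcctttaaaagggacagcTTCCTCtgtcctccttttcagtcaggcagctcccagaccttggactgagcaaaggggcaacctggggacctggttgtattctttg
The core was found 3 times in the *Mrc1* window and 2 times in that of *Cd68*, and these letters are not in the windows of *Csf1*, *Cd163* and *Folr2*. Of all 32851 promoters in the table, 28.3% hold it. The *Cd68* window also holds the AP-1 letters TGANTCA 2 times (7.81% of all promoters hold them) and the C/EBP letters TTGCNNAA 1 time (10.8%). Such matches describe the letters only.

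*Csf1*, the ligand, stayed low to gd14.5 and then more than doubled. The WT libraries held 18.3, 26.1 and 22.0 CPM at gd10.5, then 24.5, 28.2 and 25.8 CPM at gd14.5. They reached 56.4, 58.1 and 58.0 CPM at gd16.5, followed by 64.7, 70.0 and 64.96 CPM at gd19.5. The KO libraries in the same order of stages held 26.5, 18.0 and 26.3 CPM, then 21.0, 23.2 and 25.1, then 78.9, 56.5 and 56.6, and finally 87.0, 87.8 and 80.4 CPM. In both genotypes every gd16.5 library lay above every gd14.5 library. The rise from gd14.5 to gd16.5 was 2.20-fold in WT (log2 fold change 1.14, SE 0.143, adjusted p = 2.01e-05) and 2.77-fold in KO (1.47, SE 0.144, adjusted p = 1.19e-06), by the quasi-likelihood test of edgeR with Benjamini-Hochberg adjustment over all genes. Neither the step before nor the step after passed the test. *Il34*, the other ligand of Csf1r, rose at 2 steps in each genotype. In WT its mean went from 0.467 CPM at gd10.5 to 2.63 CPM at gd14.5 and 19.45 CPM at gd16.5 (log2 fold changes 2.46 and 2.88, adjusted p = 2.21e-06 and 2.92e-07), and in KO from 0.731 to 3.27 and 12.6 CPM (2.15 and 1.94, adjusted p = 5.5e-06 and 1.03e-05). Per length of exon, *Csf1* exceeded *Il34* between 7.98 and 24.1 times within gd10.5 libraries, whereas at gd16.5 the ratio was 0.973 to 1.28 in WT and 1.28 to 2.48 in KO.

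The receptor rose earlier than its ligand. *Csf1r* counted 507, 380.1 and 429 CPM in the WT gd10.5 libraries and 543, 661 and 601 CPM at gd14.5, then 737, 688 and 999 CPM at gd16.5 and 686, 662 and 607 CPM at gd19.5. The KO libraries held 395, 329 and 402 CPM, then 588, 581 and 764 CPM, then 737, 697 and 867 CPM, and 783, 808 and 748 CPM. All 6 gd14.5 libraries were above all 6 of gd10.5. From gd10.5 to gd14.5 the rise was 1.37-fold in WT (log2 0.46, SE 0.146, adjusted p = 0.0127) and 1.72-fold in KO (0.78, SE 0.147, adjusted p = 0.000217). The further rise in WT at gd16.5, 1.34-fold (adjusted p = 0.0482), rested on replicate 3 at 999 CPM, and without it the adjusted p was 0.267. That call was also lost without WT gd14.5 replicate 1 (0.187) or replicate 3 (0.117). The WT rise at gd14.5 was also lost without WT gd10.5 replicate 2 (adjusted p = 0.0704) or WT gd14.5 replicate 2 (adjusted p = 0.0527), while the KO rise held in every alternative.

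The general macrophage markers did not follow each other. *Cd68*, a lysosomal glycoprotein gene, held 118, 124 and 111 CPM in WT and 118, 103 and 121 CPM in KO at gd10.5. At gd14.5 it reached 182, 184 and 203 CPM in WT and 197, 202 and 199 CPM in KO, a rise of 1.61-fold (log2 0.69, SE 0.102, adjusted p = 1.6e-05) and 1.75-fold (0.81, SE 0.102, adjusted p = 3.93e-06). It then stayed between 160.4 and 239 CPM in all later libraries, and no later step passed the edgeR test on all 24 libraries. The KO difference of gd16.5 from gd14.5 passed with limma voom (log2 -0.24, adjusted p = 0.0333) and on the 6 libraries alone (-0.20, adjusted p = 0.0435). *Adgre1* took another course, being lowest at gd14.5. Its WT values ran from 5.16, 6.18 and 4.53 CPM at gd10.5 through 3.48, 3.51 and 2.78 CPM at gd14.5. Then came 5.37, 3.45 and 2.82 CPM at gd16.5, with 5.14, 3.81 and 9.14 CPM last. The KO libraries held 3.36, 2.93 and 5.75 CPM, then 2.39, 3.27 and 2.99 CPM, then 5.63, 8.94 and 6.93 CPM, and 5.20, 5.22 and 6.64 CPM. In WT all gd14.5 libraries were below those of gd10.5, but the difference narrowly missed the threshold (log2 -0.70, SE 0.298, adjusted p = 0.0539). It passed with DESeq2 (adjusted p = 0.0444), with limma voom (0.0334) and on the 6 libraries alone (0.0109), and the highest adjusted p of its alternatives was 0.172. In KO the rise from gd14.5 to gd16.5 was 2.49-fold (log2 1.32, SE 0.301, adjusted p = 0.00378), with no overlap. *Spi1* held between 1.98 and 4.59 CPM in all libraries, and its 1 called change was KO gd19.5 over gd10.5, 1.51-fold (adjusted p = 0.0126). The highest *Spi1* and *Adgre1* values, 4.59 and 9.14 CPM, came from the same library, WT gd19.5 replicate 3, whose *Cd14* was also the highest of its group at 10.2 CPM.

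**Figure D2:**
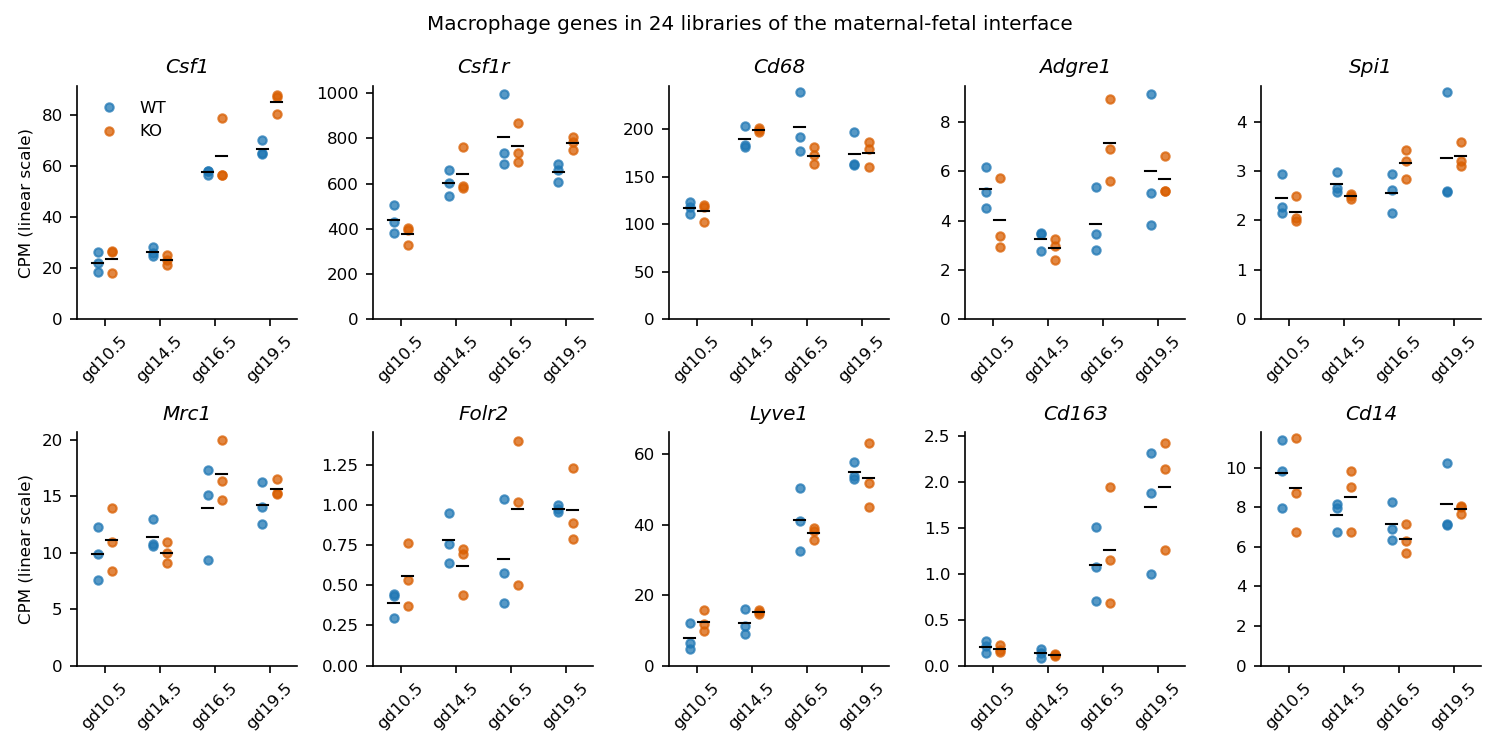
Level of each of the 10 genes in CPM (linear axes from 0) in all 24 libraries by gestation day, WT in blue and KO in orange, with a black bar at each group mean. *Csf1*, *Lyve1* and *Cd163* are high at gd16.5 and gd19.5 in both genotypes, *Csf1r* and *Cd68* step up at gd14.5, and *Cd14* shows no such step.

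The resident-type markers split into 2 pairs, of which *Lyve1* and *Cd163* changed most. *Lyve1* (chr7:110850607-110863239, minus strand) held 12.0, 6.40 and 4.78 CPM in WT and 11.8, 9.83 and 15.8 CPM in KO at gd10.5. At gd14.5 it held 11.3, 16.1 and 9.09 CPM in WT and 15.2, 14.6 and 15.7 CPM in KO. The values of gd16.5 were 32.6, 50.5 and 41.1 CPM in WT and 39.2, 35.7 and 38.2 CPM in KO, and at gd19.5 they were 57.9, 53.8 and 53.1 CPM and 52.0, 63.3 and 45.03 CPM. No library of the later stages overlapped any of the earlier ones. The rise from gd14.5 to gd16.5 was 3.39-fold in WT (log2 1.76, SE 0.252, adjusted p = 7.17e-05) and 2.49-fold in KO (1.31, SE 0.249, adjusted p = 0.000849). The smaller WT rise from gd10.5 to gd14.5 (log2 0.66, SE 0.257, adjusted p = 0.0371) came from overlapping groups and was lost without WT gd14.5 replicate 2 (adjusted p = 0.219), WT gd10.5 replicate 2 (0.141) or WT gd10.5 replicate 3 (0.18). It was lost as well with limma voom (0.0656) and on the 6 libraries alone (0.124), and held in 7 of 13 alternatives.

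*Cd163* (chr6:124304656-124330527, plus strand) was near the limit of detection, taken as 3 counts, until gd14.5. Its counts at gd10.5 were 4, 10 and 5 for WT, beside 6, 4 and 5 for KO. At gd14.5 they were 7, 5 and 2 for WT, beside 4, 4 and 3 for KO, so that no early library exceeded 10 counts. Counts of 17, 34 and 22 followed for WT at gd16.5, beside 23, 63 and 15 for KO. The last stage gave counts of 47, 62 and 24 for WT, beside 49, 37 and 71 for KO. In CPM the later libraries (0.684 to 2.42) all lay above the earlier ones (0.0842 to 0.270). The log2 rise at gd16.5 was 2.91 in WT (SE 0.467, 95% interval 1.99 to 3.82, adjusted p = 0.000222) and 3.44 in KO (SE 0.475, interval 2.51 to 4.38, adjusted p = 4.33e-05). The gene passed the filter on low counts through its late libraries alone, so that it had to differ between stages.

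*Mrc1* and *Folr2* varied less. *Mrc1* ran from 7.57 to 14.0 CPM in the gd10.5 and gd14.5 libraries and from 9.34 to 20 CPM later. Its 1 called step was KO gd16.5 over gd14.5, where 16.3, 20 and 14.6 CPM stood against 9.07, 10.9 and 9.99 CPM (log2 0.77, SE 0.207, adjusted p = 0.011). That call was lost without KO gd14.5 replicate 1 (adjusted p = 0.0521) or KO gd16.5 replicate 2 (0.0647). *Folr2* was counted between 7 and 36 times per library, or 0.296 to 1.39 CPM. It rose from gd10.5 to gd14.5 in WT (0.447, 0.432 and 0.296 CPM against 0.948, 0.636 and 0.758 CPM, log2 0.97, SE 0.372, adjusted p = 0.0336), a call that was lost in 5 of the 6 fits that left out 1 of these libraries. The other folate receptor gene, *Folr1*, was 29.7 to 254 times more abundant per length of exon in every library, and it rose from 30.7 ± 9.18 to 111 ± 8.22 CPM (SD, n = 3) over that step in WT and from 37.0 ± 11.8 to 94.9 ± 7.15 CPM in KO (log2 1.86 and 1.36, adjusted p = 2.88e-07 and 6.72e-06). *Stab2*, another hyaluronan receptor of endothelium, went a different way from *Lyve1*. In WT it rose from 11.8 to 34.1 CPM at gd14.5 (log2 1.54, adjusted p = 5.82e-07), then fell to 23.9 CPM at gd16.5 (-0.51, adjusted p = 0.0296) and to 12.95 CPM at gd19.5 (-0.88, adjusted p = 0.00511). In KO it went from 16.2 to 31.8, 19.96 and 12.2 CPM, and each of its 3 steps also passed.

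*Cd14* had no step called by edgeR, while limma voom called it lower in WT at gd14.5 than at gd10.5 (log2 -0.36, adjusted p = 0.0497) and in KO at gd16.5 than at gd14.5 (-0.45, adjusted p = 0.034). It ran from 5.70 to 11.5 CPM over all libraries. The WT libraries held 9.84, 11.4 and 7.95 CPM at gd10.5, followed by 8.16, 7.96 and 6.78 CPM at gd14.5, by 6.90, 6.32 and 8.27 CPM at gd16.5, and by 7.09, 7.17 and 10.2 CPM. The KO libraries held 8.74, 6.74 and 11.5 CPM, then 9.002, 9.84 and 6.74 CPM, then 7.17, 6.29 and 5.70 CPM, and 7.997, 8.05 and 7.66 CPM. Neighbouring stages overlapped, except that all KO libraries of gd19.5 lay above those of gd16.5. The KO difference of gd16.5 from gd14.5 had an unadjusted p of 0.0406 and an adjusted p of 0.12 (log2 -0.42, SE 0.192). *Ly96*, which encodes the partner of the lipopolysaccharide receptor, held group means between 4.53 and 6.05 CPM with no called step. *Tlr4*, the receptor itself, fell from 81.0 ± 27.3 to 30.9 ± 1.03 CPM (SD, n = 3) between gd10.5 and gd14.5 in WT and from 67.0 ± 26.8 to 30.4 ± 4.45 CPM in KO (log2 -1.39 and -1.14, adjusted p = 0.000108 and 0.000785). Per length of exon, the ratio of *Cd14* to *Mrc1* was 2.28 to 4.26 within gd10.5 libraries and 1.61 to 3.00 within those of gd19.5.

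Counted by step, 4 of the 10 genes rose from gd10.5 to gd14.5 in WT (*Csf1r*, *Cd68*, *Lyve1* and *Folr2*) and 2 in KO (*Csf1r* and *Cd68*), beside 26.2% and 24.7% of all 19299 tested genes that rose and 54% and 51.1% that were called in either direction. From gd14.5 to gd16.5, 4 rose in WT (*Csf1*, *Csf1r*, *Lyve1* and *Cd163*) and 5 in KO (*Csf1*, *Adgre1*, *Mrc1*, *Lyve1* and *Cd163*), beside 9.73% and 12% of all genes that rose and 18.1% and 23.6% called in either direction. *Cd163*, which had to differ, is 1 of each count. It is also among the members counted below over the whole span, and among those past 2-fold at the second step and over the span. From gd16.5 to gd19.5 none passed in either genotype, where 4.64% and 5.98% of all genes were called in either direction and 1.97% and 3.02% rose. At an unadjusted p under 0.05, edgeR gave 2 members in WT and 1 in KO at that last step, beside 3975 and 4200 of all 19299 genes. Both DESeq2 and limma voom called 0 members there, beside 1334 and 1753 of all genes by DESeq2 and 2126 and 1884 by limma voom. Over the whole span from gd10.5 to gd19.5, 7 rose in WT and 7 in KO, beside 30.5% and 29.8% of all genes that rose and 62.7% and 61.4% called in either direction. Past 2-fold were 0 members at the first step in either genotype (22.5% and 20.1% of all genes), 3 in WT and 4 in KO at the second (5.09% and 8.61%), 0 at the last (1.49% and 2.19%), and 4 in each over the whole span (29.5% and 28.8%). By edgeR on all 24 libraries no member fell at any step, whereas on the 6 libraries compared alone it called falls of *Adgre1* and *Cd68*. DESeq2 called a fall of *Adgre1* and limma voom falls of *Adgre1*, *Cd14* and *Cd68*, with the values given above. Over the whole span in WT, limma voom also called *Cd14* lower (log2 -0.38, adjusted p = 0.038). Consecutive steps share the libraries of the middle stage, and the median log2 change of all genes lay between -0.025 and 0 in these comparisons.

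**Figure D3:**
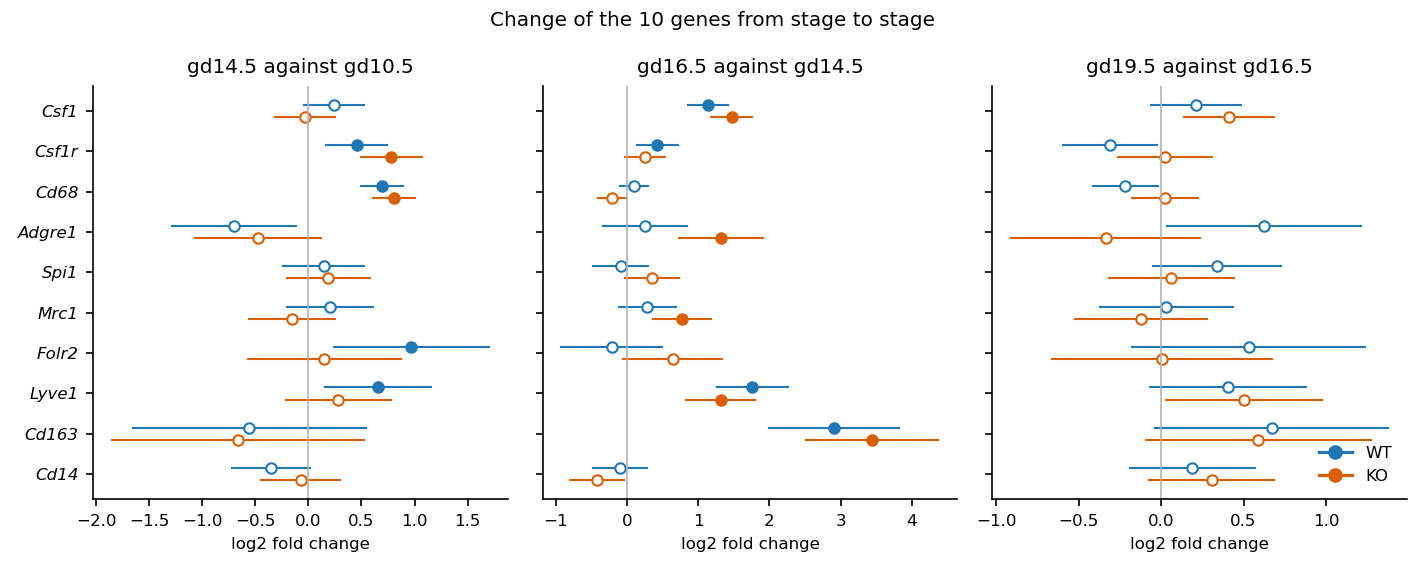
Log2 fold change of each of the 10 genes at the 3 steps between stages in WT (blue) and KO (orange), with 95% intervals from the edgeR standard errors. Filled points had an adjusted p under 0.05, and the scales of the 3 panels differ. *Csf1*, *Lyve1* and *Cd163* are filled in both genotypes in the middle panel, and no point is filled in the right one.

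A longer list of 20 resident-type genes, which includes *Mrc1*, *Lyve1*, *Cd163* and *Folr2*, was mixed at the first step. Of 16 tested, 4 rose and 4 fell in WT, and 2 rose and 4 fell in KO, where 54% and 51.1% of all genes were called and 26.2% and 24.7% rose. The genes that fell in WT were *Igf1* (log2 -2.80), *Stab1* (-1.70), *C1qa* (-1.06) and *C1qb*, whereas the iron exporter gene *Slc40a1* (1.87) and the scavenger receptor gene *Marco* (1.51) rose. At the second step 4 rose and 1 fell in WT, with a median log2 change of 0.51, and 10 rose and 1 fell in KO, with a median of 0.88, where 18.1% and 23.6% of all genes were called. The KO genes past 2-fold besides *Lyve1* and *Cd163* were the complement genes *C1qa* (log2 1.49, adjusted p = 0.00297), *C1qb* (1.43) and *C1qc* (1.44), the Mertk ligand gene *Gas6* (1.19) and *Fcrls* (1.07). The 1 that fell in each genotype was *Marco*, which passed the filter through its gd10.5 and gd14.5 libraries alone and so had to be lower later, as *Cd163* had to be higher. Whether the genotypes differed in their course over all stages was asked by the interaction described further on, where edgeR called 0 of 19299 genes. The difference at the second step was not tested alone.

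The monocyte-type list, which includes *Cd14*, held more genes that fell than rose after gd10.5. Of 18 tested genes, 2 rose and 11 fell from gd10.5 to gd14.5 in WT (median log2 change -0.87), and 2 rose and 9 fell in KO (-0.66). Of all 19299 genes, 54% and 51.1% were called at that step and 26.2% and 24.7% rose, with medians near 0. In WT the fall was -2.75 for the integrin gene *Itgal*, -1.82 for *Clec4e*, -1.80 for the chemokine receptor gene *Ccr2* and -1.78 for *Treml4*, on the log2 scale. *Chil3* rose in both genotypes (1.84 in WT, 1.25 in KO). At the second step 3 rose and 1 fell in WT and 2 rose and 2 fell in KO, with medians of -0.06 and 0.22. *Vcan* rose at that step in both (1.18 and 2.16). Among the general macrophage genes, 3 rose (*Csf1r*, *Cd68* and *Mertk*) and 6 fell at the first step in WT. The fall was -2.42 for *Tyrobp*, -2.27 for *Ptprc*, -2.05 for *Laptm5* and -1.33 for *Fcer1g*, all of which lymphoid cells transcribe too. All 10 NK cell genes fell at that step in both genotypes, of which *Ncr1*, *Klrb1c* and *Gzma* passed the filter through gd10.5 alone and had to, and the sum of the list went from 929 to 1329 CPM at gd10.5 to 231 to 301 CPM at gd14.5 in WT. The 11 trophoblast genes summed to between 8554 and 9234 CPM and then to between 35337 and 38083 CPM. The part of these shifts in the changes of the 10 genes and of the other lists, *Itgal* included, was not tested. Of 15 macrophage transcription factor genes, 2 rose and 8 fell in WT at the first step, beside the same shares of all genes. *Runx1* (-1.60), *Irf5* (-1.16) and *Zeb2* (-1.15) were among those that fell, as was *Spic*, which passed the filter through gd10.5 alone, beside a *Spi1* that had a log2 change of 0.15 (adjusted p = 0.547).

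Between the genotypes, none of the 10 genes passed the test at any stage. At gd10.5 and gd14.5, 9 of the 10 could be tested, since *Cd163* was under the filter, and at gd16.5 and gd19.5 all 10. Among all genes, edgeR called 0.00572%, 0.0166%, 0.00586% and 0.115% at the 4 stages in turn. At an unadjusted p under 0.05 there were 0, 0, 1 and 2 members, beside 140 of 17480, 1222 of 18024, 1894 of 17071 and 2354 of 17397 genes tested. DESeq2 called 0, 0, 0 and 1 member, beside 2, 26, 182 and 206 of all genes. From limma voom there was no called member, beside 1, 5, 1 and 41 of all genes. Members with no overlap between the genotypes numbered 0 at gd10.5 and 1 at gd14.5. There was 1 at gd16.5 and there were 2 at the last stage, against 4.18%, 12.5%, 17.7% and 21.4% of all tested genes.

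*Csf1* at gd19.5 came nearest to the threshold. Its KO libraries (80.4 to 87.8 CPM) all lay above WT (64.7 to 70.0 CPM), a 1.25-fold difference (log2 0.33, SE 0.0633, 95% interval 0.20 to 0.45, unadjusted p = 0.000479, adjusted p = 0.118). It passed with DESeq2 (adjusted p = 0.0126) and without the expression filter (0.00432), and over all alternatives the adjusted p ran from 0.00432 to 0.568. *Csf1r* was also higher in each KO library of that stage, 748 to 808 against 607 to 686 CPM (log2 0.23, SE 0.079, adjusted p = 0.27). At gd16.5, *Adgre1* stood at 5.63, 8.94 and 6.93 CPM in KO and 5.37, 3.45 and 2.82 CPM in WT, without overlap (log2 0.90, SE 0.274, unadjusted p = 0.0124, adjusted p = 0.421). The log2 difference of *Cd68* at that stage was -0.22 (SE 0.117, adjusted p = 0.48). The trophoblast genes of these libraries summed to between 54889 and 59333 CPM in KO and between 34052 and 46552 CPM in WT, and the NK cell genes to between 169 and 173 and between 165 and 204 CPM. The part of either in the *Adgre1* and *Cd68* values was not tested. At gd14.5, *Spi1* held 2.42, 2.50 and 2.53 CPM in KO and 2.66, 2.57 and 2.99 CPM in WT.

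At gd10.5 the highest and the lowest difference had wide intervals, and that of *Folr2* (log2 0.49, SE 0.364) lay between them. *Lyve1* had a log2 difference of 0.69 (SE 0.371, 95% interval -0.04 to 1.42, adjusted p = 1) and *Adgre1* one of -0.39 (SE 0.294, interval -0.97 to 0.18, adjusted p = 1). With any 1 library left out, KO gd10.5 replicate 2 included, still no member passed at any stage. The resident, monocyte, general macrophage, Csf1 axis and transcription factor lists also held 0 called genes by edgeR at each stage, with 0 to 5 genes of a list at an unadjusted p under 0.05, and their median log2 differences lay between -0.20 and 0.36. The 0.36 was that of the general macrophage list at gd16.5, of which *Adgre1* is one. The 5 were of that list and stage too, with *Adgre1*, *Fcgr1*, *C5ar1* and *Ptprc* higher in KO and *Trem2* lower. At that stage and p, *Ccr2*, *Plac8*, *Vcan* and *Ms4a4c* of the monocyte list were higher, and none of that list was lower. In the Csf1 axis and transcription factor lists *Csf3r* was higher, and *Il34*, *Zeb2* and *Batf3* were lower. Such a p was found for 1894 of all 17071 genes tested.

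**Figure D4:**
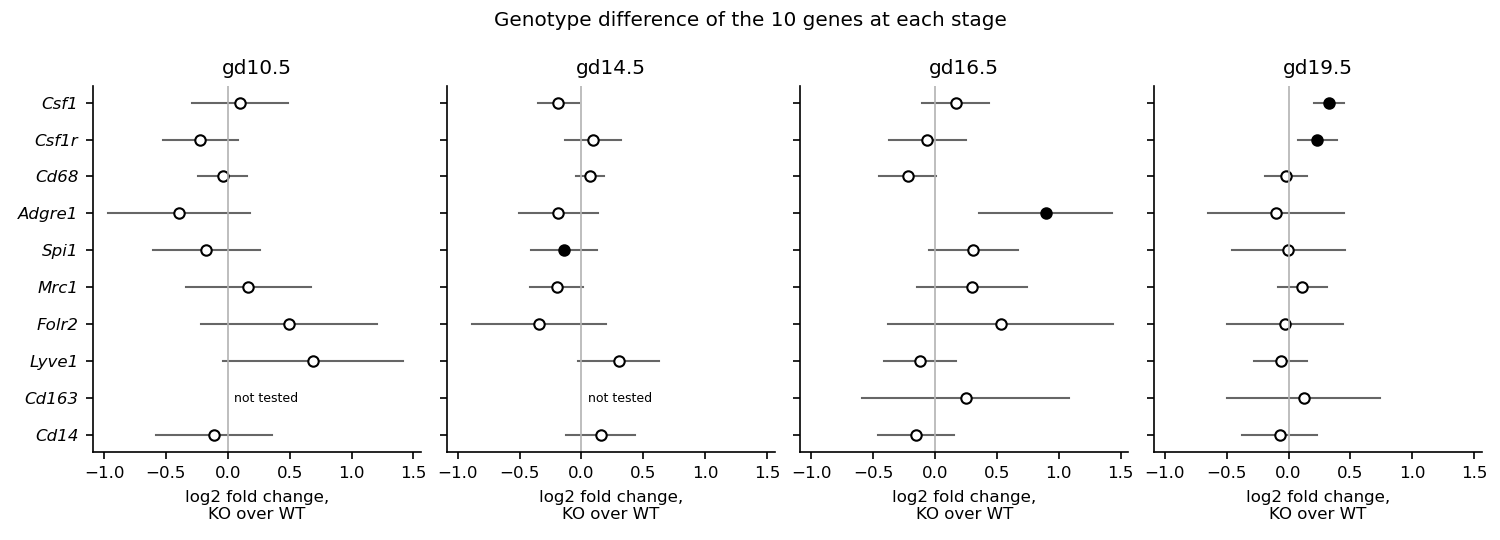
Log2 fold change of KO over WT for each of the 10 genes at each stage, with 95% intervals from the edgeR standard errors. Black points mark genes without overlap between the 3 KO and the 3 WT libraries, and *Cd163* was not tested at gd10.5 and gd14.5. The black points are *Spi1* at gd14.5, *Adgre1* at gd16.5 and *Csf1* and *Csf1r* at gd19.5, and none of them had an adjusted p under 0.05.

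Whether the course over the stages differed between genotypes was asked with an interaction term over all 24 libraries. None of the 10 genes passed, and edgeR called 0 of 19299 genes, with 1396 at an unadjusted p under 0.05, while DESeq2 called 26 and limma voom 0. The smallest p of a member was that of *Adgre1* (unadjusted 0.0316, adjusted 0.669), followed by *Csf1* (unadjusted 0.097, adjusted 0.729). A change called in one genotype and not in the other, such as those of *Adgre1* and *Mrc1* at gd16.5, was thus not shown to differ between them.

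How the genes varied together is given as Pearson's r of log2 CPM over the 24 libraries, which share stage, tissue composition and sequencing. *Csf1* correlated with *Cd163* (r = 0.94) and *Lyve1* (r = 0.92), and *Csf1r* with *Cd68* (r = 0.83). Most of this was between groups. After the mean of each of the 8 groups was taken away, *Csf1* had r = 0.07 with *Lyve1* and 0.19 with *Cd163*. The highest r were then those of *Adgre1* with *Spi1* (r = 0.83) and *Mrc1* with *Folr2* (r = 0.74), followed by *Adgre1* with *Cd14* (r = 0.49) and *Csf1r* with *Cd68* (r = 0.47). *Csf1r* had r = -0.36 with *Spi1* and -0.20 with *Adgre1* on the same deviations. The highest *Adgre1* and *Spi1* values came from the same library, WT gd19.5 replicate 3, and r without that library was not computed. *Folr2* rested on 7 to 36 counts per library.

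**Figure D5:**
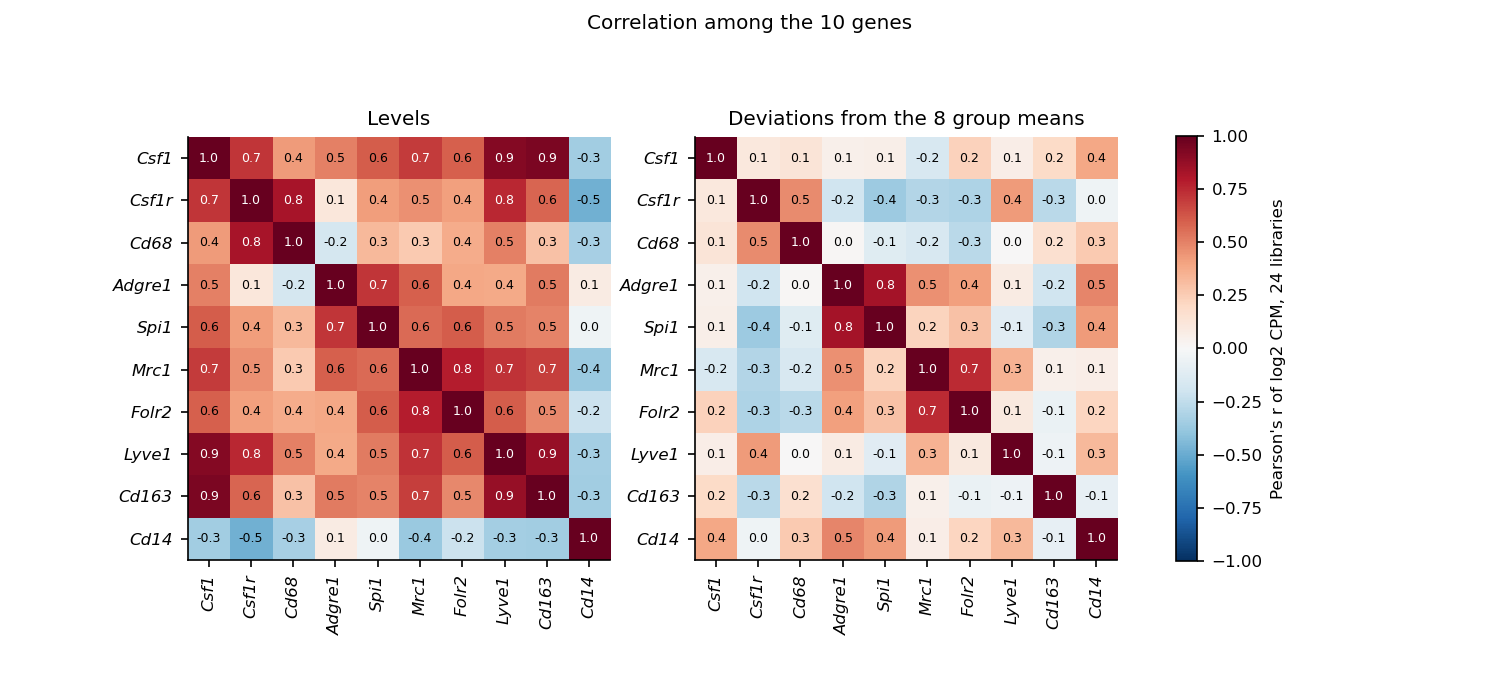
Pearson's r of log2 CPM between each pair of the 10 genes over 24 libraries, for the levels (left) and for the deviations from the 8 group means (right), on a colour scale from -1 to 1. *Csf1*, *Lyve1* and *Cd163* are at or near 0.9 on the left and between -0.1 and 0.2 on the right, where *Adgre1* with *Spi1* and *Mrc1* with *Folr2* stand out.

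Among 15109 genes with a mean of at least 1 CPM, those most like *Csf1* over the 24 libraries were *Skil* (r = 0.98), *Npas2*, *Egfr*, *Tent5b* and *Itpr1*. *Dmrt1* (0.98), *Nfatc4*, *Rab11fip5*, *Dmgdh* and *Misp3* were most like *Lyve1*, and *Tmem104* (0.95), *Gramd4*, *Slc4a8*, *Slc36a4* and *Csrnp1* most like *Csf1r*. For *Cd14* they were *Aif1l* (0.88), *Mfap5*, *Vldlr*, *Gng11* and *Sorbs2*. On the deviations from group means, *Slco2a1* (0.90), *Wbp1l*, *Sema6a*, *Copa* and *Prex1* led for *Csf1r*, *Nfatc4* (0.85), *Bhmt2*, *Rab11fip5*, *Dipk2a* and *Serpinc1* for *Lyve1*, *Ptgs1* (0.87), *Secisbp2l*, *Igfbp6*, *Ro60* and *Ltbp3* for *Csf1*, and *Cpq* (0.89), *Cavin3*, *Rrm1*, *Mfap5* and *Plod2* for *Cd14*. None of these genes is on the macrophage lists used here.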

How the data were processed

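Bulk mRNA-seq counts of 24 libraries were analysed. Per the paper's methods and the submitters' processing notes, the authors trimmed reads of a stranded kit with Trim Galore 0.6.4, aligned them to GRCm38 with STAR 2.7.3a and counted them with featureCounts of Subread 2.0.0 at settings given as default, which would ignore strand and leave out reads of several places or genes. The deposited counts per gene are whole numbers without normalization, and the deposited gene length (sum of exon bases) was used for CPM per kilobase, also known as RPKM. The annotation release is not given in the sources used here. KO libraries are numbered as in their descriptions.

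In R 4.3.3, counts were filtered by edgeR 4.0.16 (minimum count 10, minimum total 15), normalized by TMM and tested by quasi-likelihood F tests with Benjamini-Hochberg adjustment. KO was compared with WT on the 6 libraries of a stage, and stages on 1 fit of all 24 libraries. A call had an adjusted p under 0.05. Intervals are 1.96 standard errors wide on each side. log2 CPM for correlations used a prior count of 2. The fits were tested on simulated data. The alternatives were RLE size factors, no filter, at least 10 counts in every library, a replicate block, DESeq2 1.42.0, limma 3.58.1 voom with quality weights, other libraries in the fit, other thresholds and each library left out.

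The 10 genes and all gene lists were chosen with earlier results of these data known. Named are the 10 genes, *Il34*, *Folr1*, *Stab2*, *Tlr4* and *Ly96*, at most 4 genes past 2-fold per list and comparison, *C1qtnf6*, and the 5 genes most like *Csf1r*, *Lyve1*, *Csf1* and *Cd14* by Pearson's r. Further genes named with their lists (*C1qb*, *C1qc*, *Gas6*, *Fcrls*, *Mertk*, *Chil3*, *Tyrobp*, *Ptprc*, *Laptm5*, *Vcan*, *Fcer1g*, *Ncr1*, *Klrb1c*, *Gzma*, *Prf1*, *Gzmb*, *Fcgr1*, *C5ar1*, *Trem2*, *Plac8*, *Ms4a4c*, *Batf3* and those of the closing observations) were chosen after their values were seen. No pair of replicates was a repeated library (chi-square per degree of freedom 8.23 to 177 over 24 pairs).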

Additional observations from a re-analysis of the deposited data

How the results depend on the processing

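Of 643 log2 fold changes recomputed under an alternative, 593 kept their direction and their side of the threshold, 31 lost a call, 17 gained one and 2 reversed. Entered were only changes with an unadjusted p under 0.05, changes called under an alternative, and the highest and lowest of each KO against WT comparison. Most small changes were thus left out, and the counts do not describe all members. The reversals were both of *Adgre1* in KO against WT at gd19.5, which went from -0.10 to 0.25 with limma voom and to between -0.35 and 0.34 with 1 library left out (0.34 without WT gd19.5 replicate 3). For KO against WT at gd19.5, no expression filter and DESeq2 gave 1 member called (*Csf1*) in place of 0. With an absolute log2 fold change over 1 required, 0 in place of 4 (WT) and 2 (KO) members were called from gd10.5 to gd14.5, and 4 in place of 7 in each genotype from gd10.5 to gd19.5. An adjusted p under 0.1 called 1 member (*Csf1*) in KO gd19.5 against gd16.5. With 1 library left out, the members called were 0 to 0 for KO against WT at every stage and for the interaction. They were 2 to 3 in WT and 2 to 2 in KO for gd14.5 against gd10.5, 3 to 4 and 4 to 5 for gd16.5 against gd14.5, 0 to 0 and 0 to 1 for gd19.5 against gd16.5, and 6 to 7 and 6 to 9 for gd19.5 against gd10.5. The count of 2 in WT came without WT gd10.5 replicate 2 or 3 or WT gd14.5 replicate 2. The 1 was *Csf1* without KO gd16.5 replicate 1 (adjusted p = 0.0186), and the 9 added *Adgre1* and *Folr2* without KO gd10.5 replicate 3. *Mrc1* over gd10.5 to gd19.5 was called in 9 of 13 alternatives in WT (lost without gd10.5 replicate 2 or 3 or gd19.5 replicate 1 or 2) and 7 of 13 in KO (lost without any 1 library but gd10.5 replicate 3, and on the 6 libraries alone). The calls of *Csf1* and *Lyve1* from gd14.5 to gd16.5 and of *Cd68* from gd10.5 to gd14.5 held in both genotypes under every alternative that gave a value.

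The replicate numbers were not shown to pair the libraries: in 0 of 12 comparisons did every same-numbered pair correlate above 0.1 (r from -0.46 to 0.41). This rule cannot exclude pairing, since so few pairs enter each comparison. For KO against WT every r was positive at gd14.5 (0.027 to 0.17) and at gd19.5 (0.038 to 0.11). With the replicate block, 3 in place of 4 members were called from gd14.5 to gd16.5 in WT (*Csf1r*, adjusted p = 0.0532), and the other counts did not move. Depth limits *Cd163* at gd10.5 and gd14.5 and *Folr2* throughout.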

Other observations

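Receptor genes of other colony-stimulating factors were called between the last stages. *Csf2rb*, the shared receptor chain for Csf2 and related cytokines, rose from gd16.5 to gd19.5 in WT (log2 1.14, adjusted p = 0.0166) and in KO (1.40, adjusted p = 0.00463). *Csf3r*, the receptor of neutrophil growth factor, rose in WT (1.59, adjusted p = 0.00394) but had a log2 change of -0.24 in KO (adjusted p = 0.651). At gd16.5 its log2 difference of KO from WT was 1.33 by edgeR (unadjusted p = 0.00054, adjusted p = 0.277). The interaction over all stages, where edgeR called 0 of 19299 genes, did not show the genotypes to differ. The difference at this step was not tested alone. The 10 neutrophil genes together summed to between 98.4 and 112 CPM at gd14.5. At gd16.5 they summed to between 108 and 113 CPM in WT and between 104 and 125 CPM in KO. At gd19.5 they summed to between 93.5 and 115 CPM in WT and between 102 and 109 CPM in KO. The sums hide single genes. At gd16.5 the log2 difference of KO from WT by edgeR was 1.74 for *Retnlg* and 1.07 for *S100a9* (adjusted p = 0.362 and 0.277). It was 0.46 for *Ltf*, 0.04 for *Cxcr2*, -0.14 for *Ngp* and -0.28 for *S100a8*, none of them called.

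Of the lists for efferocytosis and hyaluronan, *Cd36* rose from gd10.5 to gd14.5 (log2 2.64 in WT, 2.22 in KO) and *Scarb1* fell (-2.14 and -2.61). Hyaluronan receptor genes did not move as 1 group over the whole span. *Cd44* rose (2.02 in WT, 2.26 in KO) with *Lyve1*, whereas *Hmmr*, a gene of dividing cells, fell (-3.73 and -3.98), as did *Flt4* (-1.36 and -1.33), which marks lymphatic endothelium.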
